A study of Drosophila melanogaster with 6 samples.

Results

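Neuropeptides and peptide hormones are the signalling peptides of the fly's neurons, gland cells and gut endocrine cells. The genes taken here were a list of 32 precursor genes, chosen by name for what they encode, and 28 of them could be read from a probe set that the platform annotation gives to no other gene. Such probe sets covered 11982 genes among the 18769 probe sets tested. Probe sets of Hug, Dsk, AstA and Tk were not analysed here. Neuropeptides are made as long precursors that are cut and amidated in dense-core vesicles, released into the haemolymph or near other neurons, and read mostly by G protein-coupled receptors. In adult flies they set feeding, water balance, gut movement, daily rhythm and the release of other hormones. Most are made by few cells, so a whole-body sample holds their transcripts diluted in those of other tissues.

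The series, titled for tolerance of oxidant stress, profiled whole adult Drosophila melanogaster on Affymetrix Drosophila Genome 2.0 arrays. The 3 samples called GAL4xUAS came from a cross of da-GAL4, a driver built on regulatory sequence of daughterless, a gene active in most tissues, to a UAS-AMP line, so that an antimicrobial peptide is over-expressed through most of the body. The 3 samples called UAS were the UAS-AMP stock itself, not crossed to the driver, so every sample carried the transgene. Each sample pooled 25 males and 25 females, with no age given. The labels leave the peptide unnamed, and driver-only flies were not analysed here, so a difference below is that of the cross with its driver chromosomes. Nothing in the labels says that the 3 samples of a group were separate cultures, and the p-values below rest on the spread among these samples, which could be purely technical. Genes of the ovary (8 of 8) and of the male reproductive tract (7 of 7) were above background on every array of these mixed-sex samples. Median signals lay between 767 and 903 on the GAL4xUAS arrays and between 847 and 865 on the UAS arrays.

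Values are probe set signals on a linear scale. Signals of different probe sets are not comparable with each other, so no gene's level is read as higher or lower than that of another gene. Sums over the marker lists below weigh the brightest probe sets most and are no amounts of RNA of a cell type. The background level of an array was set at the 95th percentile of its 27 Bacillus control probe sets, and it lay between 94.1 and 123 on the GAL4xUAS arrays and between 90.3 and 118 on the UAS arrays. Of the 28 genes, 23 were above this level on all 6 arrays. Only amn, a precursor known for its part in memory, was at or below it on all 6, with 57.5, 24.5 and 11.1 in GAL4xUAS flies against 87.3, 46.6 and 5.4 in UAS flies, so no fold is given for it, and it enters the counts below at these values. Eh, CCAP, Burs and CCHa1 were above it on some arrays and not on others. Fewer cells of a type and less RNA per cell cannot be told apart in these whole-fly samples.

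**Figure D1:**
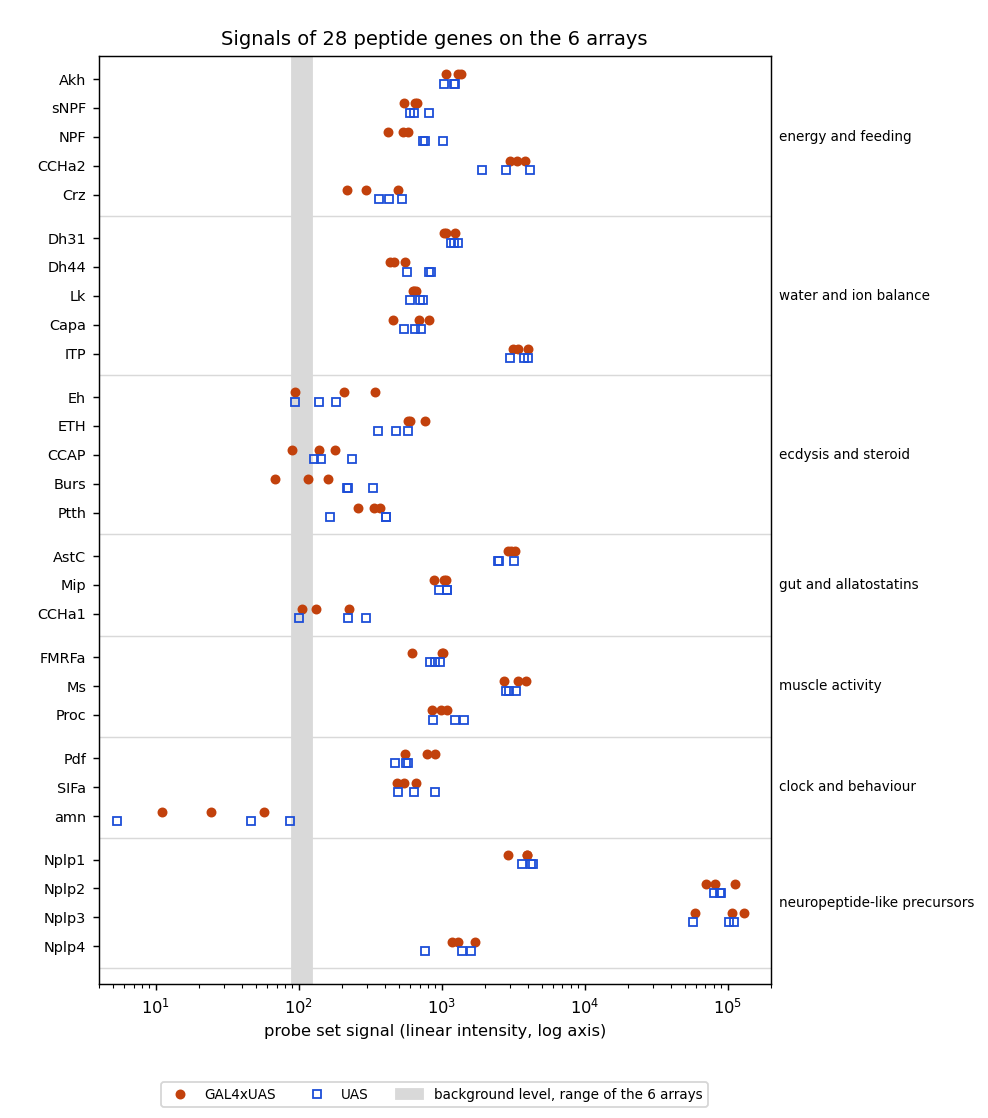
Signals of the 28 measured peptide genes (rows, grouped by role) on a log axis of linear intensity, with 3 GAL4xUAS arrays as filled circles above 3 UAS arrays as open squares in each row, and the background level as a grey band. In NPF, Dh44 and Burs all circles lie left of all squares, in ETH they lie right of them, and in the other 24 rows the groups overlap.

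None of the 28 genes passed the test. In limma with 1 prior variance for all signals (the constant fit) and p-values adjusted by Benjamini-Hochberg across the whole table, 0 of 28 had an adjusted p under 0.05, as did 0 (0%) of all probe sets. In the trended fit the prior variance follows the signal and is also estimated robustly, with outlying spreads given less weight. There 0 of 28 passed, where 147 (0.783%) of all probe sets did. When known changes were put into simulated arrays of this number, with a spread that follows the signal, the constant fit missed every 2-fold change and most 4-fold changes, and the trended fit recovered more of both. The count of 0 does not show that these genes were alike between groups. Only 14 of the 28 had a 95% interval inside a 2-fold change in either direction in the constant fit. The simulated spread of each probe set was its own spread on these arrays, pulled toward a prior that follows the signal. The simulation thus does not rank the fits, and its recovery need not hold for these arrays. At an unadjusted p under 0.05 there were 3 genes, or 10.7%, in either fit, beside 11.0% of all probe sets in the constant fit and 12.5% in the trended fit. The 3 were NPF, Burs and Dh44, each lower in GAL4xUAS flies, where 8.16% of all probe sets were called lower in the constant fit and 8.67% in the trended fit. Without UAS replicate 1 the constant fit left 1. The arrays of one group all lay outside the range of the other in 4 genes, or 14.3%, beside 18.5% of all probe sets. It was 3 lower and 1 higher, beside 12.8% of all probe sets lower and 5.76% higher. Of the 28, 17 had a log2 fold change below 0, beside 54.0% of all probe sets, and the median was -0.06, beside -0.04 for all probe sets. Each of these shares of the peptide genes lay near that of the whole array.

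Among genes of energy use and feeding, the lowest p belonged to NPF, the fly homologue of vertebrate neuropeptide Y, which is made in brain neurons and in endocrine cells of the midgut and promotes feeding. NPF had 420.4, 577.7 and 534.7 in GAL4xUAS flies against 1024, 744 and 767 in UAS flies. All 3 arrays of the cross were below all 3 of the UAS line, the nearest pair being 577.7 and 744. The log2 fold change was -0.72 ± 0.20 (SE), 1.65-fold lower, with an unadjusted p of 0.0142 and an adjusted p of 0.312, or 0.227 in the trended fit. Over the 14 other settings it ranged from -0.82 to -0.58, with adjusted p from 0.146 to 0.655.

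The other feeding and energy hormones overlapped between groups. Akh, the adipokinetic hormone of the corpora cardiaca that mobilises stored fat and sugar, had 1310, 1371 and 1071 in GAL4xUAS flies against 1248, 1043 and 1228 in UAS flies. Its log2 fold change of 0.09 had a 95% interval of -0.32 to 0.49. The groups interleave, and the interval leaves out a change of 1.5-fold in either direction. sNPF, short neuropeptide F, which also promotes feeding, averaged 622 ± 66.7 in GAL4xUAS flies and 681 ± 113 in UAS flies (SD, n = 3 each). CCHa2, a hormone of gut and fat body that acts on the insulin-producing cells, had 3374, 3023 and 3833 in GAL4xUAS flies against 2837, 4159 and 1903 in UAS flies. The GAL4xUAS values of CCHa2 all lie inside the spread of the UAS values, which was the wider by far, with a coefficient of variation of 38.2% against 11.9% in GAL4xUAS flies. Crz, corazonin, a stress-linked peptide, had 296, 492 and 218 in GAL4xUAS flies against 364, 426 and 524 in UAS flies, a log2 fold change of -0.45 ± 0.34 (SE) that did not pass.

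Hormones of water and ion balance act on the Malpighian tubules and hindgut. Dh44, a diuretic hormone related to vertebrate corticotropin-releasing factor, had 463, 552 and 433 in GAL4xUAS flies against 848, 820.0 and 575 in UAS flies. The groups did not overlap, although GAL4xUAS replicate 2 and UAS replicate 3 were close. The difference was -0.62 ± 0.21 (SE) on the log2 scale, 1.53-fold lower, with an unadjusted p of 0.0283 and adjusted p of 0.384, or 0.324 in the trended fit. It ranged from -0.80 to -0.52 over the other settings, with adjusted p from 0.204 to 0.749.

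The other 4 of this role overlapped between groups. Dh31, a calcitonin-like diuretic hormone that is also made in gut endocrine cells, averaged 1116 ± 103 in GAL4xUAS flies and 1225 ± 70.1 in UAS flies (SD, n = 3 each), with a 95% interval of the log2 difference from -0.47 to 0.20. Lk, leucokinin, which drives fluid secretion by the tubules, had 666, 632 and 638 in GAL4xUAS flies against 709, 599.9 and 742 in UAS flies. Its 3 GAL4xUAS values all lie between the lowest and the middle UAS values, and its interval ran from -0.42 to 0.27. ITP, the ion transport peptide, an antidiuretic hormone, averaged 3544 ± 443 in GAL4xUAS flies and 3570.4 ± 523 in UAS flies, with an interval of -0.45 to 0.44. Capa, whose peptides act on the tubules, had a wider interval, -0.64 to 0.65, and GAL4xUAS replicate 3 was low at 454 against 694 and 812 in the other arrays of its group.

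Ecdysis hormones time the shedding of the cuticle and the hardening that follows. Burs encodes a subunit of bursicon, the hormone of cuticle tanning and wing expansion, and it had 117, 159.7 and 67.9 in GAL4xUAS flies against 329, 219 and 221 in UAS flies. Every GAL4xUAS array was lower than every UAS array, and GAL4xUAS replicate 3 was under the background level of its array. The log2 fold change was -1.21 ± 0.36 (SE), 2.31-fold lower, with an unadjusted p of 0.0179 and an adjusted p of 0.331, or 0.308 in the trended fit. Over the other settings it ranged from -1.49 to -0.88, with adjusted p from 0.262 to 0.686. The probe set of Burs was among the 5 members dropped when the dimmest 33.3% of probe sets were left out.

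ETH, the ecdysis triggering hormone of the tracheal Inka cells, leaned the other way. It had 585, 597 and 767 in GAL4xUAS flies against 478, 579 and 357 in UAS flies. The groups did not overlap, but GAL4xUAS replicate 1 and UAS replicate 2 were almost equal. The log2 fold change was 0.48 ± 0.23 (SE), 1.39-fold higher, with an adjusted p of 0.524. It ranged from 0.29 to 0.64 over the other settings, with adjusted p from 0.352 to 0.810. Eh, the eclosion hormone, which acts with ETH, had 207, 93.6 and 341 in GAL4xUAS flies against 140, 182 and 94.0 in UAS flies, and 1 array of each group was at the background level. CCAP, a cardioactive peptide of the same circuit, averaged 136 ± 44.3 in GAL4xUAS flies and 169 ± 59.1 in UAS flies (SD, n = 3 each). Ptth, the brain hormone that starts ecdysone synthesis, had 371, 259 and 336 in GAL4xUAS flies against 167, 411 and 408 in UAS flies, with UAS replicate 1 the lowest of the 6 arrays and an interval of -0.94 to 1.08. In the constant fit no member of this role had a 95% interval inside a 2-fold change in either direction. In the trended fit 1 did, Ptth, with -0.82 to 0.96.

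**Figure D2:**
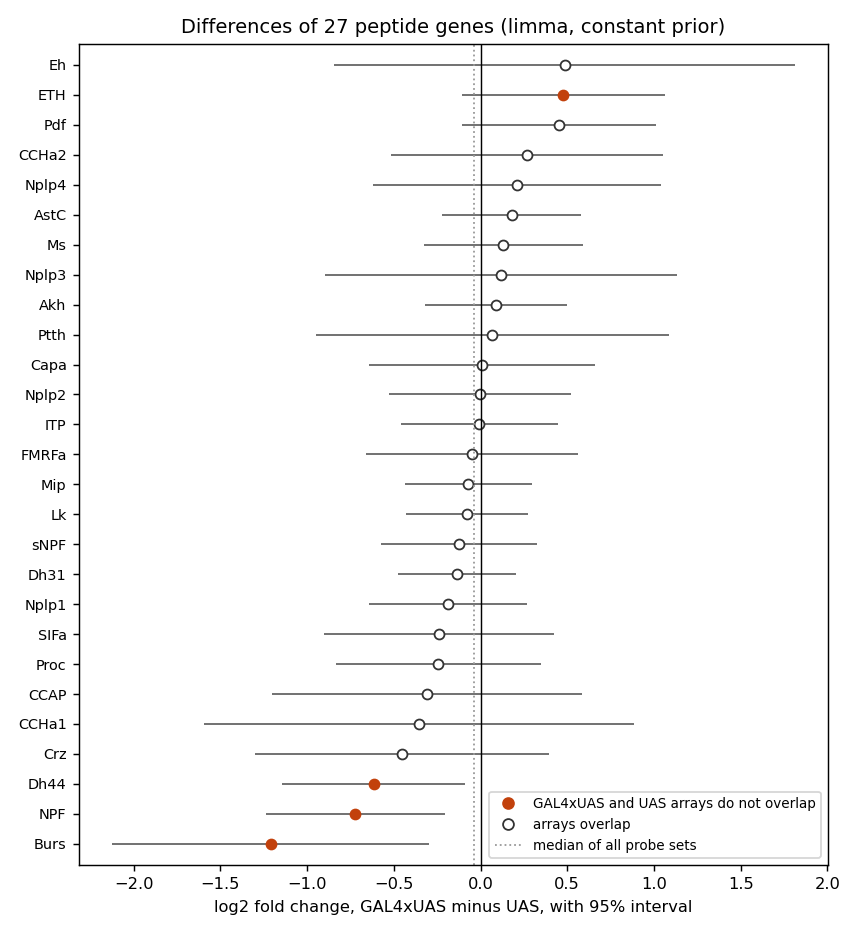
Log2 fold change (GAL4xUAS minus UAS) of 27 peptide genes (without amn), in order of size, with its 95% interval from the constant fit, filled points marking the 4 genes whose groups did not overlap and the dotted line the median of all probe sets. The intervals of Burs, NPF and Dh44 lie below 0 before adjustment, and the other 24 intervals include 0.

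Of the peptides listed for the gut, AstC, Mip and CCHa1 were measured, and all overlapped between groups. AstC, allatostatin C, which is made in brain and midgut, had 2909, 3074 and 3246 in GAL4xUAS flies against 2500 (replicate 1), 2479 and 3216 in UAS flies. Its 3 GAL4xUAS values were higher than 2 of the 3 UAS values, and the log2 fold change was 0.18 with an interval of -0.21 to 0.57. Mip, the myoinhibiting peptide, averaged 999 ± 104 in GAL4xUAS flies and 1046 ± 74.1 in UAS flies (SD, n = 3 each), with an interval of -0.43 to 0.29. CCHa1 was dim, with 226, 133 and 105 in GAL4xUAS flies against 223, 295 and 101 in UAS flies, and its interval was wide at -1.59 to 0.88. The log2 fold changes of AstC, Mip and CCHa1 were thus 0.18, -0.07 and -0.35, beside -0.72 for NPF, -0.14 for Dh31 and 0.27 for CCHa2.

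Peptides that act on muscle also overlapped between groups. Ms, myosuppressin, which slows heart and gut muscle, had 3411, 3921 and 2721 in GAL4xUAS flies against 2981, 2818 and 3294 in UAS flies. FMRFa, whose peptides enhance muscle contraction, had 1029, 1012 and 616 in GAL4xUAS flies against 824, 892 and 969 in UAS flies. In both genes GAL4xUAS replicate 3 was the lowest of the 6 arrays and the other GAL4xUAS arrays were the highest. Proc, proctolin, which stimulates muscle, averaged 982 ± 117 in GAL4xUAS flies and 1183 ± 293 in UAS flies (SD, n = 3 each). The log2 fold changes were 0.13, -0.05 and -0.24.

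Among peptides of rhythm and behaviour, Pdf, the pigment-dispersing factor that links the clock neurons, had 785, 902 and 558 in GAL4xUAS flies against 471, 577 and 567 in UAS flies. GAL4xUAS replicates 1 and 2 were above every UAS array, and replicate 3 lay inside the UAS range. The log2 fold change was 0.45 ± 0.22 (SE), 1.37-fold higher, with an adjusted p of 0.529. It stayed above 0 under the 14 other settings, from 0.30 to 0.65, with adjusted p from 0.358 to 0.845. SIFa, a peptide of a few brain neurons that affects feeding and courtship, averaged 562 ± 87.6 in GAL4xUAS flies and 679 ± 205 in UAS flies (SD, n = 3 each).

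The neuropeptide-like precursors are genes whose peptides were found by mass spectrometry, and some of them are made outside the nervous system. Nplp2, which encodes an abundant haemolymph protein, had 70422 (replicate 1), 81051 and 112143 in GAL4xUAS flies against 90033, 88860.1 and 80515 in UAS flies. Nplp3 had 59360 (replicate 1), 107702 and 130962 in GAL4xUAS flies against 110723, 102533 and 57442 in UAS flies. Nplp4 had 1185, 1308 and 1715 in GAL4xUAS flies against 1398, 1602 and 764 in UAS flies. In all 3 genes GAL4xUAS replicate 1 was the lowest and replicate 3 the highest of its group, and UAS replicate 3 was the lowest of its own. Their log2 fold changes were -0.0030, 0.12 and 0.21, with intervals of -0.52 to 0.52, -0.89 to 1.13 and -0.61 to 1.04. Nplp1, whose peptides come from the nervous system, averaged 3600.4 ± 597 in GAL4xUAS flies and 4076 ± 369 in UAS flies (SD, n = 3 each), a log2 fold change of -0.19.

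How far the data limit a change differed between genes. In 14 of the 28, or 50%, the 95% interval lay inside a 2-fold change in either direction, beside 52.2% of all probe sets, and in the trended fit it did so in 19. In 9 it lay inside 1.5-fold, and these were Akh, sNPF, Dh31, Lk, ITP, AstC, Mip, Ms and Nplp2. These intervals are not adjusted for the number of genes. The median residual SD of the 28 was 0.29 on the log2 scale, beside 0.32 for all probe sets, and the median size of the log2 fold change was 0.19, beside 0.27. The peptide genes ran high or low on single arrays, with GAL4xUAS replicate 3 the lowest of the 6 arrays for 9 genes and the highest for 6, and UAS replicate 3 the lowest for 7.

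Receptors, processing enzymes and further peptide hormones were taken as 3 lists. Of 34 receptor genes, 21 were measured, 7 higher and 14 lower in GAL4xUAS flies, with a median log2 fold change of -0.18. None passed in the constant or the trended fit, and 5 had an unadjusted p under 0.05 in the constant fit, or 23.8% beside 11.0% of all probe sets, with 3, or 14.3% beside 12.5%, in the trended fit. The groups did not overlap in 7, or 33.3% beside 18.5% of all probe sets. Both the 5 and the 7 include CCKLR-17D3, which was under background on every array. The lowest p belonged to AstC-R1, a receptor of allatostatin C, with 134, 118 and 145 in GAL4xUAS flies against 394, 295.0 and 306 in UAS flies. The groups were far apart, 145 being the highest value of the cross and 295.0 the lowest of the UAS line, and all 6 values were above background. The log2 fold change was -1.31 ± 0.17 (SE), 2.48-fold lower, with an unadjusted p of 0.000418 in the constant fit. In the trended fit the SE was 0.33 and the unadjusted p 0.00321. The adjusted p was 0.135 in each fit.

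CCHa1-R, the receptor of CCHa1, was the other way round. It had 317, 264 and 250.0 in GAL4xUAS flies against 176, 159.0 and 157 in UAS flies. Its groups did not overlap, and the log2 fold change was 0.74 ± 0.15 (SE), with adjusted p of 0.208, or 0.389 in the trended fit. CCKLR-17D3, a receptor of drosulfakinin, had the next lowest p, but its signals, 12.9 to 20.4 in GAL4xUAS flies and 27.0 to 36.1 in UAS flies, were all under the background level. SPR, which binds Mip and the sex peptide, had 2656, 2286.5 and 2380.5 in GAL4xUAS flies against 3417, 3209 and 2812 in UAS flies, and CCAP-R, the receptor of CCAP, had 171, 212 and 232 in GAL4xUAS flies against 242.5, 294 and 311 in UAS flies. Both were lower on every GAL4xUAS array, with log2 fold changes of -0.36 and -0.46 and adjusted p of 0.442 and 0.444 in the constant fit. In the trended fit the unadjusted p was 0.0231 for SPR and 0.172 for CCAP-R.

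For 14 pairs of a peptide and a receptor with both measured and the receptor above background on all arrays, the values can be set side by side. NPF had a log2 fold change of -0.72 and its receptor NPFR 0.02, with a 95% interval of -0.54 to 0.58 for NPFR. Dh44 was at -0.62, beside -0.17 for Dh44-R1 and 0.03 for Dh44-R2, with an interval of -0.33 to 0.40 for Dh44-R2. AstC was at 0.18 and AstC-R1 at -1.31, and the dim CCHa1 was at -0.35 and CCHa1-R at 0.74. Pdf was at 0.45 and Pdfr, its receptor, at -0.31. Akh was at 0.09 and AkhR at -0.27, and sNPF and sNPF-R were at -0.12 and 0.01. For Burs, the receptor gene rk was under background on every GAL4xUAS array and on 1 UAS array, so the pair is not set out. The peptide had the lower log2 fold change in 6 pairs and the higher in 8. The difference between a peptide and its receptor was not tested.

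**Figure D3:**
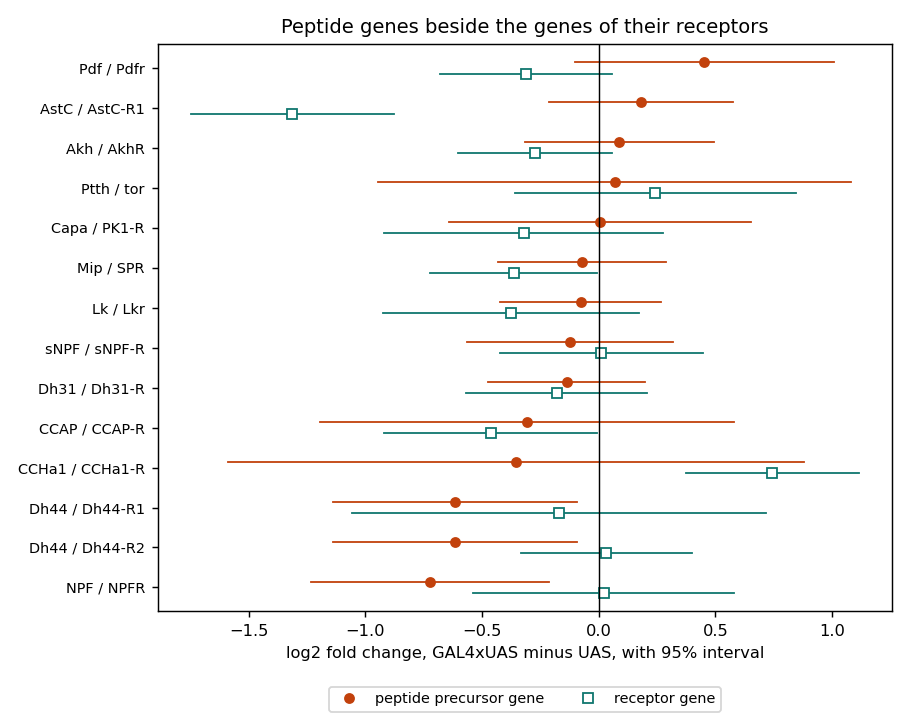
Log2 fold changes (GAL4xUAS minus UAS) with 95% intervals of 14 pairs, the peptide gene as a filled circle above its receptor gene as an open square. The interval of AstC-R1 lies wholly below that of AstC, and the peptide's point lies left of the receptor's in 6 pairs, those of NPF, Dh44 (both receptors), CCHa1, sNPF and Ptth.

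Genes of peptide processing, release and breakdown numbered 20, of which 19 were measured, 7 higher and 12 lower with a median of -0.10. None passed in either fit, and 3, or 15.8% beside 11.0% of all probe sets, had an unadjusted p under 0.05 in the constant fit, with 4, or 21.1% beside 12.5%, in the trended fit. The groups did not overlap in 4, or 21.1% beside 18.5% of all probe sets. Cadps, which primes dense-core vesicles for release, had 1522, 1619 and 1299 in GAL4xUAS flies against 2297, 2082 and 1895 in UAS flies, groups apart, with a log2 fold change of -0.50 and an adjusted p of 0.340. 7B2, the helper protein of the prohormone convertase amon, had 4449, 4958 and 3701 in GAL4xUAS flies against 3123, 2853 and 3334 in UAS flies. This gene was higher on each GAL4xUAS array, with a log2 fold change of 0.49 and an adjusted p of 0.377. Nep1, a neprilysin of the peptide-degrading kind, had 622, 776 and 647 in GAL4xUAS flies against 841, 1090.2 and 922 in UAS flies, with a log2 fold change of -0.48 and an adjusted p of 0.397. Among the core enzymes, the convertase amon was at -0.10, the carboxypeptidase svr at -0.09 and the amidating enzyme Phm at -0.07.

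Other peptide hormones numbered 18, of which 11 were measured, 6 higher and 5 lower with a median of 0.03. None passed in either fit and 0 had an unadjusted p under 0.05 in the constant limma fit, against 1, or 9.09% beside 12.5% of all probe sets, in the trended fit. That was Ilp8, an insulin-relaxin-like peptide, with 2511, 2037 and 1485 in GAL4xUAS flies against 966, 908 and 1968 in UAS flies. UAS replicate 3 lay inside the range of the cross. CNMa and the insulin-like peptide Ilp5 followed, with log2 fold changes of 0.66 and 0.38 and adjusted p of 0.604 and 0.613. The groups did not overlap in 1 gene, or 9.09% beside 18.5% of all probe sets. That gene was Ilp2, with 724, 584 and 666 in GAL4xUAS flies against 757, 726 and 747 in UAS flies.

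**Figure D4:**
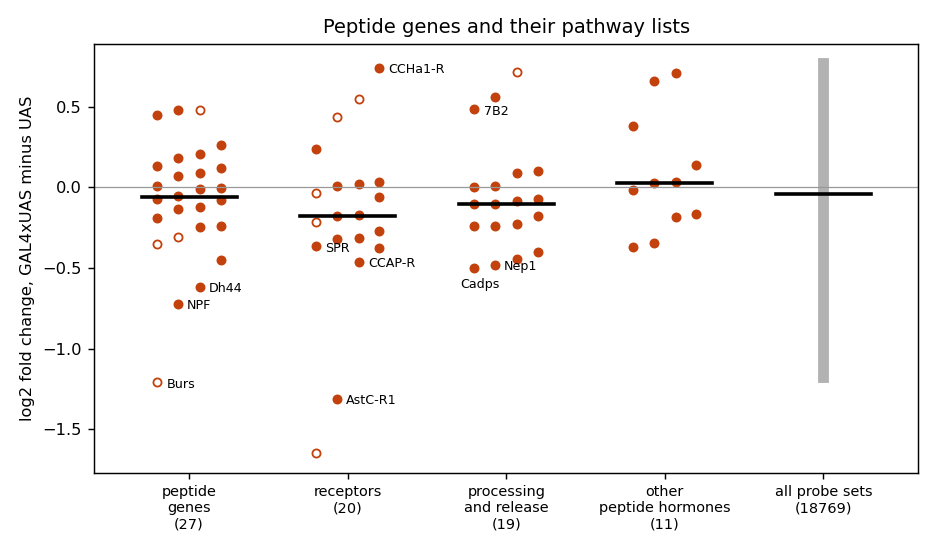
Log2 fold change (GAL4xUAS minus UAS) of the measured genes of 4 lists, with the median as a bar, names for genes at an unadjusted p under 0.05, and open circles for genes not above background on all 6 arrays (amn and CCKLR-17D3, above it on none, are not drawn but count in the medians). The grey bar spans the 5th to the 95th percentile of all probe sets, -1.18 to 0.77, and the genes outside it are Burs, AstC-R1 and the dim rk.

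Most markers of the cells that make such peptides had a log2 fold change below 0, a larger share than the 54.0% of all probe sets. None of these markers passed a test. Of 10 genes of neurons, 8 were measured and 7 were lower in GAL4xUAS flies, a median of -0.23 on the log2 scale and a summed signal of 8861 to 10276 in GAL4xUAS flies against 9820.5 to 12340 in UAS flies. Of these, elav, the defining gene, was at -0.18, nSyb at -0.50 and ChAT at 0.03. The groups did not overlap in 1 neuronal gene, para, at -0.38. Of 4 genes taken for endocrine cells of the gut, which neurons also express, all but Rab3 were lower, with a median of -0.31. The sum was 43850.4 to 48751 in GAL4xUAS flies against 45691 to 60694 in UAS flies. More of that sum came from nrv3 than from the other genes together, with 28336, 27765 and 29700.4 in GAL4xUAS flies against 35181, 36210 and 26468 in UAS flies. The defining gene pros had 1238, 1233 and 1050.4 in GAL4xUAS flies against 1729, 2023 and 1522 in UAS flies, at an adjusted p of 0.313. Of 5 genes of peptidergic cells 4 were lower, with sums of 11695 to 13676 in GAL4xUAS flies and 13695 to 14120 in UAS flies, while dimm, their defining transcription factor, was under background on 5 of 6 arrays. The other peptidergic genes were at -0.10 (amon), -0.09 (svr), -0.07 (Phm) and -0.50 (Cadps), beside a median of -0.04 for all probe sets. All 5 peptidergic genes, and Rab3 and IA-2 of the gut list, also stand in the processing list above.

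Genes of midgut enterocytes, the absorptive cells beside the gut endocrine cells, were lower in 3 of 3 measured cases, with sums of 16017 to 18663 in GAL4xUAS flies and 35606 to 41887 in UAS flies, and log2 fold changes of -1.50 for Jon65Aii, -0.95 for Mal-A1 and -0.14 for Npc2f, whose groups overlapped. Fat body genes overlapped between groups, with log2 fold changes of -0.06 for apolpp, -0.05 for Lsd-1, -0.71 ± 1.12 (SE) for Lsp2 and -0.75 ± 1.89 (SE) for Fbp1, and sums of 61816 to 79587 in GAL4xUAS flies and 71051 to 80314 in UAS flies. Ovary genes were lower in 6 of 8 (median -0.14), with sums of 286162 to 454714 in GAL4xUAS flies and 329298 to 418561 in UAS flies. In 2 of the 8, or 25.0% beside 18.5% of all probe sets, the groups did not overlap, both lower in GAL4xUAS flies. These were vas at -0.62 and Cp18 at -2.39. Cp18 had 2252, 3231 and 21902 in GAL4xUAS flies against 29711, 28476 and 27212 in UAS flies. Glial genes were lower in 2 of 3 (median -0.01), with sums of 35980.5 to 46148 in GAL4xUAS flies and 39817 to 48842 in UAS flies. Genes of the male reproductive tract were higher in 6 of 7 (median 0.22), with sums of 124392 to 201021 in GAL4xUAS flies and 97555 to 132328 in UAS flies. No marker was listed at 0, and 1 gene of the male tract (higher) and 1 of the enterocytes (lower) passed in the trended fit. The part of cell makeup in the values of the peptide genes was not tested.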

How the data were processed

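Total RNA (2 ug) of each of 6 whole-fly samples was biotin-labelled and hybridised, per the labels' protocols. The values are linear probe set intensities from the deposited series table, whose summarising software, background correction and scaling are not stated in the sources used. The mean without the top and bottom 2% was 2500.1 on every array, so the authors set a common scale. All value columns were used, 183 control probe sets were left out, and 13647 probe sets had 1 gene symbol. Symbols were updated by gene ID with the Release 6 gene table. The brightest probe set by mean log2 signal stood for a gene.

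Differences of log2(signal + 1) were fitted in R 4.3.3 by limma 3.58.1 (lmFit and eBayes, constant prior, 2-sided), and the p-values of all 18769 probe sets were adjusted together by Benjamini-Hochberg. Fold changes on that scale understate changes of low signals. The trended fit differed from the constant fit in 2 settings together, a prior variance that follows the signal and its robust estimation. The fits were run on simulated data, where the constant prior recovered fewer of the known changes than the trended one. The simulated spread was that of each probe set on these arrays, pulled toward a prior that follows the signal, which favours the trended fit. Signals were printed on every array for peptide genes with an unadjusted p under 0.05 or groups apart, and for others chosen after their values were seen, and the 3 genes of lowest p were named in each pathway list. The pairing of peptides with receptors was written after values were seen. Members and lists were chosen with earlier results of these data known. The number of arrays, 6, limits the precision.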

Additional observations from a re-analysis of the deposited data

How the results depend on the processing

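With each of the 14 alternatives, 0 of the peptide genes passed. Over all probe sets, 147 passed with the trended prior and 112 with the dimmest 33.3% left out (23 of the 28 peptide genes were in that fit, which adjusts over fewer probe sets), against 0 in the constant fit, and the cause was not tested. With the replicate number as a block, 0 probe sets passed, the median log2 fold change of the peptide genes was -0.06 as before, no adjusted call changed, and NPF was no longer at an unadjusted p under 0.05 (0.0570). Same-numbered arrays did not deviate together (correlations of -0.02, 0.00066 and -0.10). Deviations within such small groups cannot decide whether the numbers pair the samples, which stays unknown. The median stayed between -0.10 and -0.0070 over all alternatives. Of 374 alternative values of single peptide genes (without amn), 28 had the other sign, in 11 genes, none of them past a test, and the cause was not tested. With quantile scaling these were Lk at 0.0067, ITP at 0.0073, FMRFa at 0.0087 and Nplp3 at -0.021. Median centring gave ITP 0.043, FMRFa 8.27e-06 and Nplp2 0.047. With 1 array left out, the log2 fold changes that crossed 0 ranged from -0.17 to 0.25 for Capa, -0.13 to 0.078 for ITP, -0.36 to 0.29 for Ptth, -0.19 to 0.14 for Nplp2, -0.13 to 0.018 for Mip, -0.18 to 0.19 for FMRFa, -0.18 to 0.45 for Nplp3, -0.21 to 0.0075 for sNPF, -0.017 to 0.55 for CCHa2 and -0.11 to 0.42 for Nplp4. The count of peptide genes at an unadjusted p under 0.05, a count added after seeing the data, was 1 to 4 with 1 array left out and lowest without UAS replicate 1. Signal near background limits amn, Eh, CCAP, Burs and CCHa1.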

Other observations

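A second probe set names Nplp4 together with CG4238 and was not used for either gene. Its signals were 58.5, 172 and 137 in GAL4xUAS flies against 218, 154 and 48.3 in UAS flies, near the background level and overlapping between groups.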
